A study of Mus musculus with 6 samples.

Results

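The 9 genes described here encode the regulatory proteins of the skeletal muscle thin filament: the slow troponins Tnnc1, Tnni1 and Tnnt1, the fast troponins Tnnc2, Tnni2 and Tnnt3, and the tropomyosins Tpm1, Tpm2 and Tpm3. They were taken by gene symbol, and each symbol matched 1 of the 46504 features in the table. The samples were polyA RNA of the gastrocnemius, the main calf muscle, of wild-type mice: 3 restraint libraries, from mice held in 50 mL tubes for 3 h at intervals of 4 days, and 3 control libraries. Both groups carry the label day 4, and neither strain, sex nor age of the mice is given. Whether the 6 libraries are from 6 different mice is not stated, so every p-value here rests on a spread among libraries that could be technical.

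The troponin complex makes contraction depend on calcium. Troponin C binds calcium, troponin I inhibits the interaction of actin with myosin, and troponin T anchors the complex to tropomyosin, a coiled coil that lies along the actin filament. Slow and fast fibres use different genes for each subunit, and the ratio of slow to fast transcripts is used as a measure of fibre makeup. The gastrocnemius of the mouse is a mostly fast muscle. Tpm1 encodes the alpha tropomyosin of fast fibres and Tpm3 that of slow fibres, while Tpm2 encodes beta tropomyosin, which is made in both.

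The slow and fast partners are related genes, and a ratio between them is meaningful only if reads can be assigned to one of them. The longest stretch of identical bases between partners, over all GENCODE M21 transcripts, was 21 bases for the troponin C pair, 22 for the troponin I pair, 16 for the troponin T pair and 23 for Tpm3 with Tpm1. The stretch shared by 2 coding sequences is printed below in capitals with 12 bases on each side, for each troponin pair, to show how short the identity is.
Tnnc1, coding bases 42 to 86: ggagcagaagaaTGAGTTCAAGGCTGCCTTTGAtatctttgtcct
Tnnc2, coding bases 42 to 86: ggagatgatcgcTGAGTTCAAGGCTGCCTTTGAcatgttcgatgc
Tnni1, coding bases 370 to 415: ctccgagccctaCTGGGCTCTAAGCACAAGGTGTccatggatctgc
Tnni2, coding bases 367 to 412: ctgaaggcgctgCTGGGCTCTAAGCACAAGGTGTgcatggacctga
Tnnt1, coding bases 53 to 92: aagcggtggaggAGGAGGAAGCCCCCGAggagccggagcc
Tnnt3, coding bases 62 to 101: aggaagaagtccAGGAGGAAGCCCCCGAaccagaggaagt

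Among the tropomyosins the identity was longest between Tpm2 and Tpm1, at 37 bases over all transcripts and 35 within the coding sequence, where it begins at the start codon. These 2 stretches are shown because the tropomyosin ratios rest on telling the genes apart.
Tpm2, coding bases 1 to 47: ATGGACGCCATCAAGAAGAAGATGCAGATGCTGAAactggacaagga
Tpm1, coding bases 1 to 47: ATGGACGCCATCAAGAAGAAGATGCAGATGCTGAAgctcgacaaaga
A gene of the Tpm3 family outside the 9, the pseudogene Tpm3-rs7, held 78 to 118 counts per library, against 12799 to 16153 for Tpm3. Read length and the treatment of reads that match several genes are not given in the sources used here.

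On GRCm38.p6, the slow troponin genes lie on chromosome 14 from 31208312 to 31211729 (Tnnc1, gene 21924), chromosome 1 from 135783033 to 135810989 (Tnni1, gene 21952) and chromosome 7 from 4504569 to 4515975 (Tnnt1, gene 21955). The fast troponins lie on chromosome 2 from 164777161 to 164779734 (Tnnc2, gene 21925), and on chromosome 7 from 142441816 to 142444410 (Tnni2, gene 21953) and from 142498771 to 142516213 (Tnnt3, gene 21957). Tpm1 (gene 22003) lies on chromosome 9 from 67022590 to 67049672, Tpm2 (gene 22004) on chromosome 4 from 43513726 to 43523583 and Tpm3 (gene 59069) on chromosome 3 from 90072651 to 90100902. Tnnc1, Tnnc2 and Tnnt3 each overlap a gene on the opposite strand. Nisch, which overlaps Tnnc1, stood at 36.6 to 42.3 CPM (counts scaled to library size) in restraint and 36.01 to 40.81 CPM in control. Ube2c, which overlaps Tnnc2, stood at 0 to 0.621 CPM in restraint and 0.07304 to 0.2752 CPM in control, and Prr33, which overlaps Tnnt3, at 137 to 166.2 CPM in restraint and 162.9 to 175.9 CPM in control. Whether reads were counted by strand is not stated, so reads in the overlap could not be told apart. Prr33 and Ube2c stood far below Tnnt3 and Tnnc2, and Nisch nearer to Tnnc1.

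The promoters of the 3 slow troponins are shown because these genes mark one fibre type, and Tnni1 was highest in a restraint library while Tnnc1 and Tnnt1 were highest in control 2. Each sequence is the 250 bases before an annotated start in RefSeq on GRCm38.p6, with the E-box CANNTG, bound by MyoD family factors, and the TATA box TATAAA in capitals.
Tnnc1, chr14:31208062-31208311, plus strand: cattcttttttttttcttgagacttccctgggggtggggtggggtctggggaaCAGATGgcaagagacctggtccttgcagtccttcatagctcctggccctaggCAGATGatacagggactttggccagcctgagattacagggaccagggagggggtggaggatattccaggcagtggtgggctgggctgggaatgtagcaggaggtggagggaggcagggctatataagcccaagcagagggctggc
Tnni1, chr1:135799171-135799420, plus strand, the first of 2 windows: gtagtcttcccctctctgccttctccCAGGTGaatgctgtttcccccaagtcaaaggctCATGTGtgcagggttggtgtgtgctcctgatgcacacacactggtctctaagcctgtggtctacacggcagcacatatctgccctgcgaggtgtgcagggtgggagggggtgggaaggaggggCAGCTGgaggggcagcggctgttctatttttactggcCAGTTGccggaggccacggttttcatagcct
Tnnt1, chr7:4515976-4516225, minus strand: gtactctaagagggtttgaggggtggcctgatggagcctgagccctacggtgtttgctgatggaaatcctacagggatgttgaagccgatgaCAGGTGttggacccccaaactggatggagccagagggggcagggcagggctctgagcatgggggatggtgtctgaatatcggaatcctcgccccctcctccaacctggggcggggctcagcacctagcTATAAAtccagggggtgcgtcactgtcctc
The first Tnni1 window holds 4 E-boxes and the second, not shown, 2. The Tnnc1 window holds 2 and the Tnnt1 window 1, which also holds a TATAAA that begins at -30. Only the exact letters TATAAA were searched for, so a TATA box with other letters would not be marked in any window. A search of both strands for the MCAT element CATTCC, bound by TEAD factors, found 1 match in the Tnnc1 window, at -58, and none in the Tnni1 and Tnnt1 windows. Of all 32851 mouse promoter windows of this length, 66.2% hold an E-box, 12.4% a TATAAA and 12.6% a CATTCC, so these matches are common and are given as a description. Windows were found for 7 of the 9 genes, and Tnni2 and Tnnt3 are named only.

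Per length, the fast genes dominated. TPM, the deposited values scaled to transcript length and library size, fell on average over the 6 libraries in the order Tnnt3 (33860 ± 1703, SD), Tnnc2 (27372 ± 1781), Tnni2 (25346 ± 1945) and Tpm1 (22958 ± 1004), then Tpm2 (3106 ± 403), Tnnt1 (492 ± 77.2), Tnnc1 (416 ± 56.4), Tnni1 (177 ± 24.8) and Tpm3 (106.5 ± 8.55). The ranges over the libraries overlapped for Tnnc2 and Tnni2, for Tnni2 and Tpm1, and for Tnnt1 and Tnnc1, but not for the other neighbours. Within each library, however, Tnni2 was above Tpm1 and Tnnt1 above Tnnc1. Tnnc2 was above Tnni2 except in restraint 3, at 25307 against 26409 TPM. By read count Tnnt3 ranked 6 and Tpm1 8 among all features, and Tnni1, the lowest of the 9, ranked 939. The lengths implied by the counts and the deposited FPKM were 4055 bases for Tpm2 and 5753 for Tpm3, against longest GENCODE transcripts of 2175 and 2374 bases, so the TPM of these 2 genes are low for their counts. The excess was smaller for Tnnt3 (1368 against 1079 bases), Tnnt1 (1179 against 1059), Tnnc1 (807 against 721) and Tnnc2 (776 against 700). Tnni1, Tnni2 and Tpm1 showed none. Each count also pools all transcripts of a gene, 39 for Tpm1 and 14 for Tpm3 in the table, and Tpm1, Tpm2 and Tpm3 also make forms outside muscle fibres.

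None of the 9 genes passed the test between restraint and control. Tpm2 came nearest, at 5718 ± 180 CPM in restraint and 7167 ± 686 CPM in control (SD, n = 3 each), and was the only one of the 9 whose groups did not overlap on the CPM scale. The largest difference in the other direction was that of the slow troponin I gene Tnni1. The edgeR quasi-likelihood test over 15448 features called 282 of them, or 1.83%, and 0 of the 9 genes. At an unadjusted p under 0.05 it held 15.6% of all features and 1 of the 9, Tpm2, and neither DESeq2 nor limma called any of the 9. Groups did not overlap for 21.8% of all features and for 1 of the 9. The median log2 fold change of the 9 was -0.12, with 2 positive and 7 negative, against -0.005 over all features.

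For troponin C, the calcium sensor, the groups overlapped on the CPM scale for both genes, and for their ratio, and neither gene passed. Slow troponin C, Tnnc1, which is also the troponin C of the heart, had 160.8, 170.8 and 160.9 CPM in restraint 1 to 3, against 158.2, 247.2 and 142.7 CPM in control 1 to 3. The restraint libraries lay within the range of the controls, whose top was control 2. The log2 fold change was -0.15 ± 0.19 (SE) (edgeR adjusted p = 0.77). Its fast partner Tnnc2 had 10890, 9410 and 10430 CPM in restraint 1 to 3 and 11330, 13830 and 9690 CPM in control 1 to 3. The groups overlapped, and the log2 fold change was -0.18 ± 0.16 (edgeR adjusted p = 0.645). On the deposited TPM scale they did not overlap, with 27190, 25725 and 25307 TPM in restraint 1 to 3 and 28477, 30134 and 27401 TPM in control 1 to 3, the restraint libraries being lower. The count of Tnnc1 was 1.48%, 1.82% and 1.54% of that of Tnnc2 in restraint 1 to 3 and 1.40%, 1.79% and 1.47% in control 1 to 3. The libraries numbered 2 were highest in both groups, and the fold of the ratio, 1.04, had an exact two-sided permutation p of 0.5, adjusted to 0.75 over 5 ratios.

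The troponin I pair, which encodes the inhibitory subunit, was the pair whose ratio separated the groups. Slow Tnni1 had 119.7, 119.7 and 124.7 CPM in restraint 1 to 3, against 91.5, 123.8 and 83.7 CPM in control 1 to 3. The restraint libraries were nearly equal, while control 2 stood inside their range and the other 2 controls below it. On the deposited TPM scale the groups did not overlap, with 190.5, 208.6 and 193 TPM in restraint 1 to 3 and 146.3, 172 and 151 TPM in control 1 to 3. The log2 fold change on CPM was 0.28 ± 0.15 with a 95% interval of -0.05 to 0.62 and an edgeR adjusted p of 0.404. Without control 2 it was 0.47 ± 0.10 (edgeR adjusted p = 0.103). Fast Tnni2 had 10680, 9124 and 11370 CPM in restraint 1 to 3 and 10080, 13710 and 8651 CPM in control 1 to 3. Controls 2 and 3 enclosed every restraint library, and the log2 fold change was -0.06 ± 0.19 (edgeR adjusted p = 0.919).

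Within each library, Tnni1 counts were 1.12%, 1.31% and 1.10% of Tnni2 counts in restraint 1 to 3 and 0.908%, 0.902% and 0.968% in control 1 to 3. Every restraint library lay above every control library. The means were 1.18% ± 0.118 in restraint and 0.926% ± 0.0364 in control (SD, n = 3 each), a fold of 1.27 and a difference of 0.34 on the log2 scale. The exact two-sided permutation p was 0.1, the smallest that 3 against 3 can give, and 0.5 after adjustment over the 5 ratios, so this difference did not pass. With each library left out in turn the log2 difference ran from 0.26 to 0.39. Per length, in TPM, the ratio was 0.783% ± 0.0784 in restraint and 0.617% ± 0.0244 in control.

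For troponin T, the subunit that binds tropomyosin, the groups overlapped for both genes and for their ratio. Slow Tnnt1 had 284.1, 267.8 and 281.7 CPM in restraint 1 to 3, against 274.8, 449.5 and 243.2 CPM in control 1 to 3. Control 2 stood far above the other 5 libraries, which lay close together. The log2 fold change was -0.22 ± 0.21 (edgeR adjusted p = 0.693), and it was 0.10 ± 0.11 without control 2. Fast Tnnt3, the most abundant of the 9, had 24210, 21280 and 26140 CPM in restraint 1 to 3 and 21860, 28260 and 20990 CPM in control 1 to 3. Its groups overlapped with nearly equal means, and the log2 fold change was 0.01 ± 0.16 with a 95% interval of -0.35 to 0.37. The ratio of Tnnt1 to Tnnt3 counts was 1.17%, 1.26% and 1.08% in restraint 1 to 3 and 1.26%, 1.59% and 1.16% in control 1 to 3, with an exact permutation p of 0.5.

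Summed over the 3 subunits, slow troponin counts were 1.23%, 1.40% and 1.18% of fast troponin counts in restraint 1 to 3 and 1.21%, 1.47% and 1.19% in control 1 to 3. The groups overlapped almost entirely, with a fold of 0.987 and an exact permutation p of 0.8. The direction of this difference depended on the library: it was -0.02 on the log2 scale with all 6 and 0.08 without control 2. In bulk tissue a change in the number of slow fibres and a change in the RNA made per fibre cannot be told apart.

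**Figure D1:**
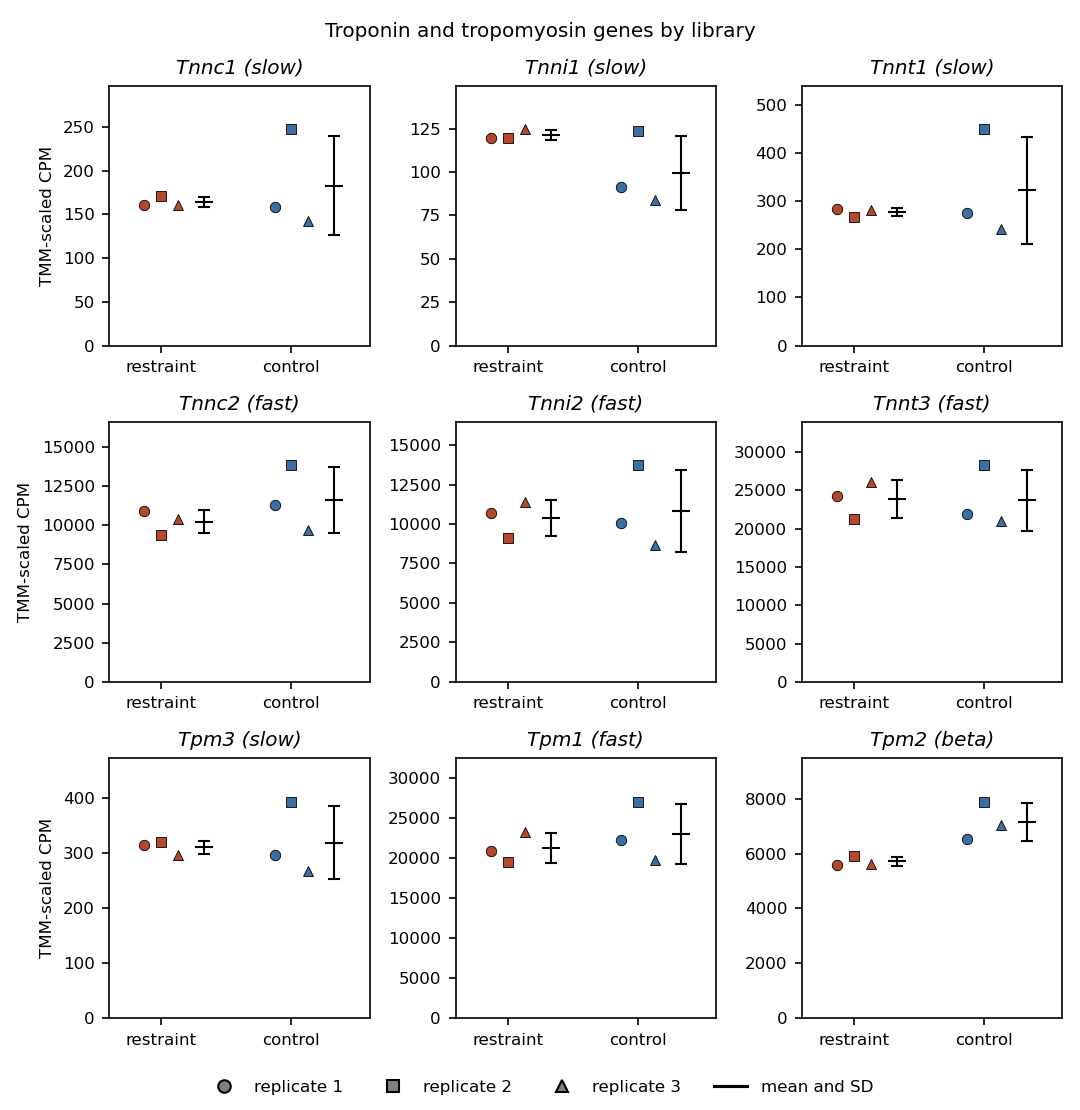
Each panel shows 1 of the 9 genes in TMM-scaled CPM (vertical axis, from 0), with restraint libraries on the left and control libraries on the right; marker shapes give the replicate number and bars the mean and SD of 3 libraries. Only in the Tpm2 panel do the groups not overlap, at 5591 to 5923 CPM in restraint and 6541 to 7900 CPM in control, and control 2 is the highest library in 8 of the 9 panels.

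**Figure D2:**
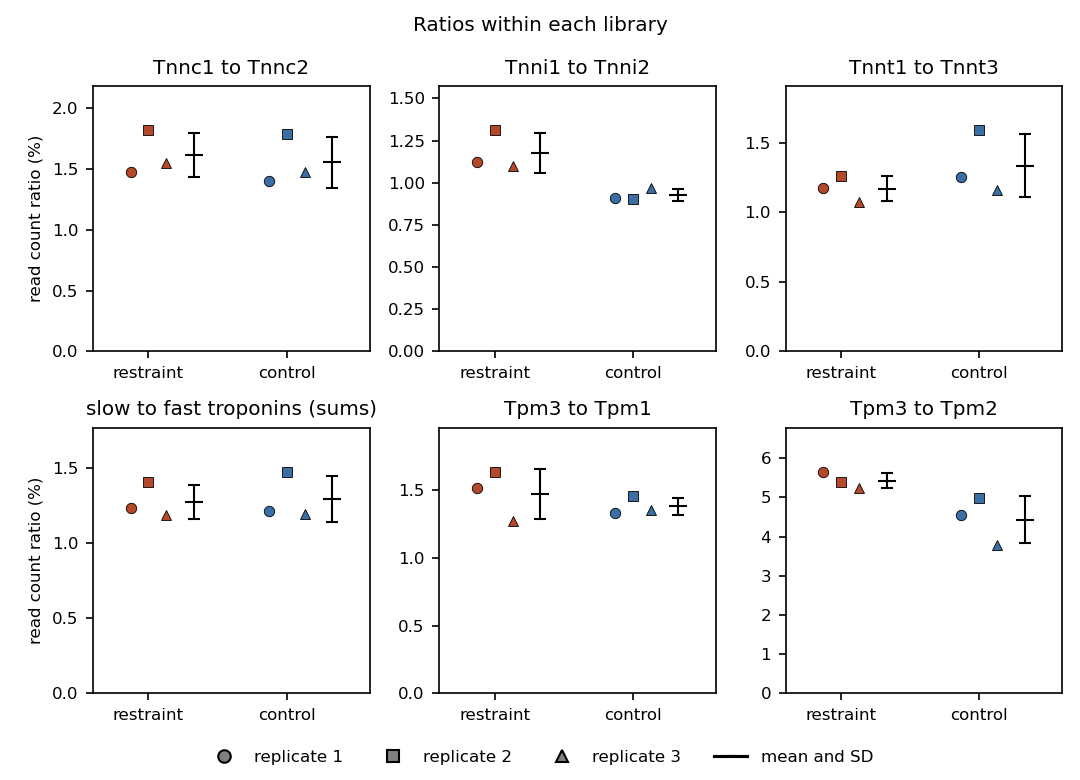
Read count ratios within each library in percent (vertical axis, from 0), with restraint on the left, control on the right, and bars for the mean and SD of 3 libraries. The groups are apart for Tnni1 to Tnni2 (1.10% to 1.31% in restraint, 0.902% to 0.968% in control) and for Tpm3 to Tpm2, and overlap in the other 4 panels.

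Beta tropomyosin was the one tropomyosin whose groups did not overlap on the CPM scale. Tpm2 had 5591, 5923 and 5640 CPM in restraint 1 to 3, against 6541, 7900 and 7059 CPM in control 1 to 3. Every restraint library was below every control library, by a log2 fold change of -0.33 ± 0.12 with a 95% interval of -0.60 to -0.05. The unadjusted p was 0.025 and the edgeR adjusted p 0.237, so Tpm2 did not pass, and the DESeq2 adjusted p was 0.0897. Rescaled as deposited TPM the groups overlapped, with 2816, 3194 and 2574 TPM in restraint 1 to 3 and 3092, 3201 and 3759 TPM in control 1 to 3.

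The alpha form of fast fibres, Tpm1, had 20830, 19560 and 23300 CPM in restraint 1 to 3 and 22280, 27060 and 19750 CPM in control 1 to 3. Its groups overlapped, and the log2 fold change was -0.12 ± 0.16 (edgeR adjusted p = 0.787). The slow alpha form, Tpm3, had 315.3, 319.1 and 296 CPM in restraint 1 to 3 and 297, 393.3 and 266.7 CPM in control 1 to 3. Again control 2 was highest and control 3 lowest, and the log2 fold change was -0.04 ± 0.15 (edgeR adjusted p = 0.929). The count of Tpm3 was 1.51%, 1.63% and 1.27% of that of Tpm1 in restraint 1 to 3 and 1.33%, 1.45% and 1.35% in control 1 to 3, with an exact permutation p of 0.6. Against Tpm2 in place of Tpm1, Tpm3 stood at 5.64%, 5.39% and 5.25% in restraint 1 to 3 and 4.54%, 4.98% and 3.78% in control 1 to 3. These groups did not overlap (fold 1.23, exact permutation p of 0.1, the smallest possible), whereas Tpm3 over the sum of Tpm1 and Tpm2 gave a p of 0.3. The ratio of Tpm2 to Tpm1, added after the Tpm2 values were seen, was 26.8%, 30.3% and 24.2% in restraint 1 to 3 and 29.4%, 29.2% and 35.7% in control 1 to 3, with overlap and an exact permutation p of 0.3.

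**Figure D3:**
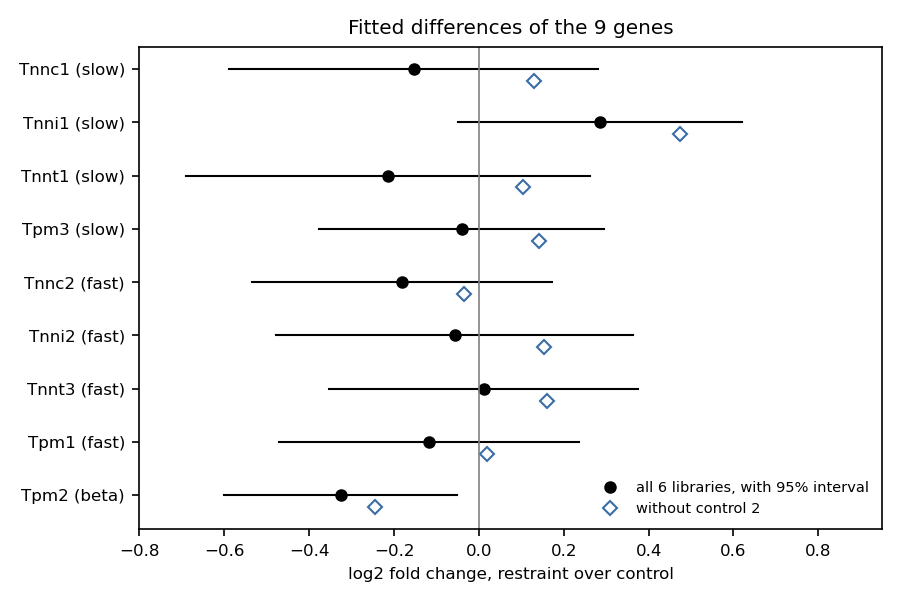
Fitted log2 fold changes of the 9 genes, restraint over control (horizontal axis), slow genes above fast ones; dots with bars give all 6 libraries with the 95% interval, and open diamonds the fit without control 2. The interval excludes 0 for Tpm2 alone, from -0.60 to -0.05 and before adjustment over features, and leaving out control 2 moves all 9 estimates up.

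Much of the spread of the 9 genes came from the controls. Control 2 was the highest library for 8 of the 9, the exception being Tnni1, while it was the highest for 19.4% of all tested features. Control 3 was the lowest for 6 of the 9, against 19.7% of all features. For Tnnt1 the SD was 8.78 CPM in restraint and 111.1 CPM in control, and for Tnnc1 it was 5.78 CPM in restraint and 56.4 CPM in control. The 9 genes took 6.87% to 7.59% of all counts in restraint, against 7.42%, 8.43% and 7.13% in control 1 to 3. Without control 2, the log2 fold change was 0.13 for Tnnc1, 0.15 for Tnni2, 0.02 for Tpm1 and 0.14 for Tpm3, all of the opposite sign to the fit with all libraries, and none of the 9 passed.

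Several other measures were also extreme in control 2. Mitochondrial genes took 13.2% to 15.1% of counts in restraint, against 15.5%, 19.3% and 14.0% in control 1 to 3, and the TMM factor was lowest in control 2, at 0.917 in a range up to 1.07. Among Schwann cell markers, none of which was called, Pmp22 had 41.6, 39.1 and 92.2 CPM in restraint 1 to 3 and 49.2, 115.2 and 68.9 CPM in control 1 to 3 (log2 fold change -0.43 ± 0.38), with control 2 the highest library. Unannotated loci took 4.84% to 5.78% of counts in restraint, against 5.96%, 7.14% and 4.98% in control 1 to 3. All 4 erythroid markers were lowest in control 2 and highest in control 3, and summed to 279.2 to 289.5 CPM in restraint and to 277.7, 230.8 and 378.5 CPM in control 1 to 3. The part of these measures in the troponin values was not tested. Other fibre genes were divided. Of 11 slow contractile and calcium genes 5 were highest in control 2 (Myh7, Myh7b, Myl2, Myl3 and Pln), as were 4 of 12 fast ones (Myh4, Myl1, Casq1 and Pvalb). Slow myosin Myh7 had 536.5, 550.6 and 490.1 CPM in restraint 1 to 3 and 485.7, 687.2 and 554.6 CPM in control 1 to 3. Mybpc2, fast myosin-binding protein C, was instead lowest there, at 4955 to 5389 CPM in restraint and 4371, 2027 and 5001 CPM in control 1 to 3.

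**Figure D4:**
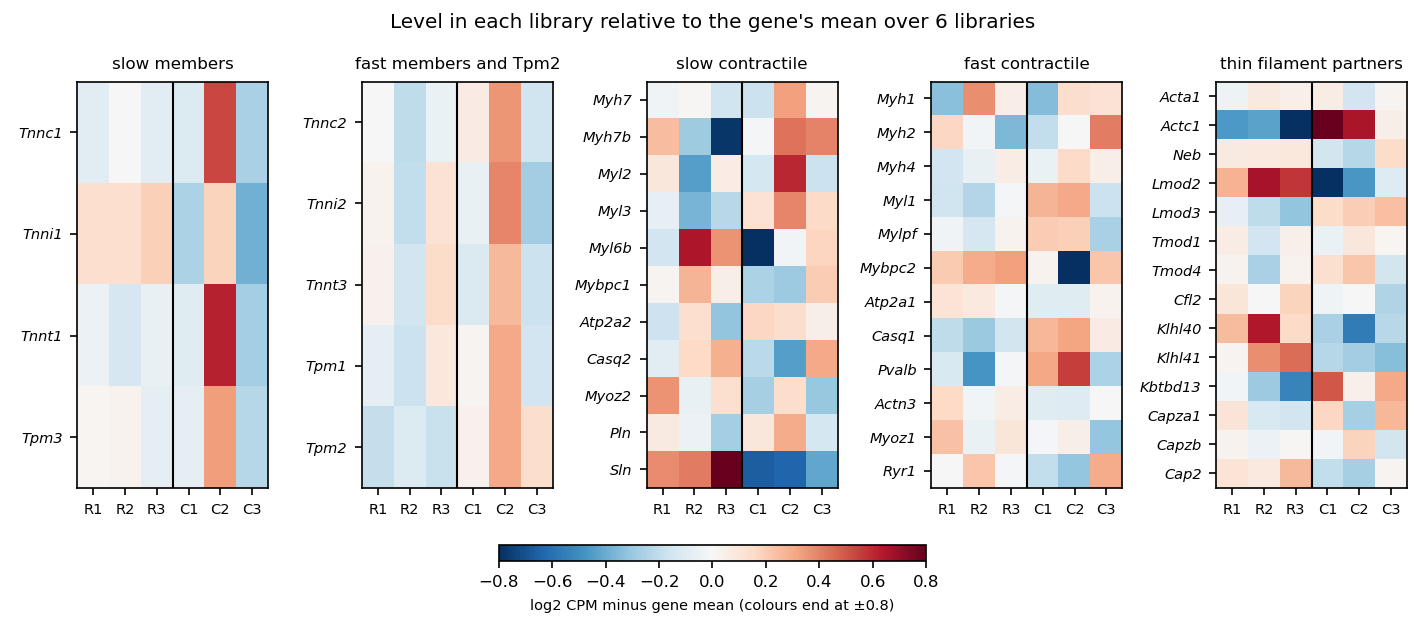
Colour gives log2 CPM in each library minus the gene's mean over the 6 libraries, ending at 0.8 either way, with restraint (R1 to R3) left of control (C1 to C3) in 5 panels: slow and fast members of the 9, slow and fast contractile genes, and thin filament partners. The C2 column is above the mean throughout the first 2 panels and mixed in the others. Among the partners, Lmod2, Klhl40, Klhl41, Cap2 and Neb are above the mean in every restraint library, and Actc1, Lmod3 and Kbtbd13 below it.

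The genes whose profile over the 6 libraries was most like that of the troponins were sought by the root mean square distance of centred log2 CPM. For the mean of the slow troponins these were Pwwp2a (0.0478), C1qtnf12 (0.0645), Myh6 (0.0653), Elk4 (0.0705) and Agpat4 (0.0718), against a median distance of 0.298 over 10081 genes. For the mean of the fast troponins they were Dbi (0.0253), Pabpn1 (0.0258), Pggt1b (0.0274), Dhrs7b (0.0317) and Ctdnep1 (0.0352), against a median of 0.259. The slow profile reached 0.44 in control 2 and -0.30 in control 3, and the fast profile 0.33 and -0.20, so likeness here means mostly the same order of the control libraries.

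Of the troponin and tropomyosin genes outside the 9, the cardiac troponin T gene Tnnt2, which developing skeletal muscle also expresses, was the most different. It had 3.14, 21.95 and 13.6 CPM in restraint 1 to 3, against 2.92, 4.70 and 3.45 CPM in control 1 to 3. Restraint 2 and 3 were above every control, and restraint 1 lay within the controls. The log2 fold change was 1.81 ± 0.56 (edgeR adjusted p = 0.167), and without restraint 1 it was 2.28 ± 0.26 (edgeR adjusted p = 0.00693). That was the only alternative in which Tnnt2 passed. It did not pass in the other 18, among them DESeq2 with all libraries (DESeq2 adjusted p = 0.165). Embryonic myosin Myh3, looked up after the Tnnt2 values were seen, had the same order among the restraint libraries, with 5.57, 81.9 and 52.8 CPM in restraint 1 to 3 and 17, 22.6 and 9.503 CPM in control 1 to 3 (edgeR adjusted p of 0.377). Perinatal myosin Myh8, looked up with it, had a log2 fold change of -0.18 ± 0.16. Beside them, 8 macrophage markers summed to 44.2, 147.2 and 76.8 CPM in restraint 1 to 3 and to 50.3, 42.0 and 37.9 CPM in control 1 to 3, so restraint 2 and 3 were highest in this sum too. In restraint 3 its largest parts were Lyz2 (43.43 CPM) and Cd68 (11.49 CPM). Restraint 3 was above every control for these and for Adgre1, Itgam and Fcgr1, but not for Csf1r, Cd163 and Mrc1. All 8 had positive log2 fold changes, 1 of the 8 (Cd68, 2.86 ± 0.56, edgeR adjusted p = 0.0441) was called higher and lost that call without any 1 library other than restraint 1, with library totals and with each limma test, and the part of these cells in the Tnnt2 values was not tested. The cardiac troponin I gene Tnni3 had 0, 10 and 6 counts in restraint 1 to 3 and 0, 0 and 4 counts in control 1 to 3 and was too low to test. Cytoskeletal Tpm4 had a log2 fold change of -0.05 ± 0.10.

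None of 14 partners of troponin and tropomyosin in the thin filament passed, and 7 had positive and 7 negative log2 fold changes. The smallest p was that of Lmod2, a leiomodin that nucleates and lengthens actin filaments, with 294.5, 383.4 and 360.6 CPM in restraint 1 to 3 and 126.9, 176 and 225.9 CPM in control 1 to 3. Every restraint library was higher, with a fitted log2 difference of 0.97 ± 0.20 (edgeR adjusted p = 0.0527), just outside the threshold of 0.05. The DESeq2 adjusted p was 8.81e-05. Klhl40, which stabilises leiomodin and nebulin, had 145.8 ± 27.1 CPM in restraint and 89.5 ± 10.98 CPM in control, with edgeR and DESeq2 adjusted p of 0.062 and 0.000797. In the other direction, larger in size and named after its values were seen, cardiac actin Actc1 had 304.1, 311.6 and 177.8 CPM in restraint 1 to 3 and 1125, 657.8 and 432.4 CPM in control 1 to 3, a log2 fold change of -1.48 ± 0.34 (edgeR adjusted p = 0.0754). Lmod3, a leiomodin like Lmod2 and also named after its values were seen, was lower in every restraint library than in any control. It had 110.2, 99.97 and 92.52 CPM in restraint 1 to 3 and 127.2, 132.1 and 135.7 CPM in control 1 to 3. The log2 fold change of Lmod3 was -0.38 ± 0.10 (edgeR adjusted p = 0.112). The main skeletal actin Acta1, at 27060 ± 1051 CPM in restraint and 26240 ± 2036 CPM in control, had a log2 fold change of 0.04 ± 0.13. Restraint lay wholly above control for 4 of the 14 and wholly below for 3, against 10.6% and 11.1% of all features, and the median log2 fold change was 0.01.

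Of all features, 1.26% were called higher and 0.563% lower, and calls among other genes of fibre type are given beside these shares. None of 12 fast contractile and calcium genes passed, with a median log2 fold change of -0.01. Casq1, the calcium store protein of fast fibres, had 2570, 2400 and 2669 CPM in restraint 1 to 3 and 3554, 3675 and 3099 CPM in control 1 to 3, without overlap (edgeR adjusted p of 0.116, DESeq2 0.00899). For Pvalb, a calcium buffer made in fast fibres, the log2 fold change was -0.43 ± 0.21 (edgeR adjusted p of 0.384). Of 11 slow genes 1 rose and none fell, with a median of -0.13. That gene was Sln, a small inhibitor of the calcium pump, with 2.61, 2.68 and 3.79 CPM in restraint 1 to 3 and 1.245, 1.266 and 1.486 CPM in control 1 to 3 (log2 fold change 1.18 ± 0.22, edgeR adjusted p of 0.0387). The call was lost without any 1 library other than restraint 1, with edgeR adjusted p of 0.0707 to 0.189, and also when scaled by library totals (adjusted p of 0.0551) or tested with limma voom (0.0541).

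Of 16 genes listed as regulators of fibre type, not all of them transcription regulators, 2 rose and none fell, with a median log2 fold change of 0.14. Rcan1, an inhibitor and target of calcineurin, had 142.4, 202.8 and 161.7 CPM in restraint 1 to 3 and 72.4, 57.7 and 66.1 CPM in control 1 to 3, a log2 fold change of 1.37 ± 0.15 (edgeR adjusted p = 0.00778). Ppargc1a, a coactivator of oxidative and slow fibre genes, had 58.4, 107.4 and 71.1 CPM in restraint 1 to 3 and 24.6, 26.7 and 23.2 CPM in control 1 to 3, a log2 fold change of 1.67 ± 0.21 (edgeR adjusted p = 0.0116). On the CPM scale every restraint library lay above every control for both genes. The Rcan1 call was lost without control 1 and the Ppargc1a call without control 1 or control 2, with edgeR adjusted p of 0.0612, 0.0831 and 0.0512.

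Total counts were 44290720 to 51125779 per library. Markers of muscle fibres were abundant in every library, with Ckm at 22940 CPM or more, and none of 6 passed: Des, desmin, had a log2 fold change of 0.50 ± 0.12 (edgeR adjusted p of 0.0754) and Mb, myoglobin, -0.19 ± 0.11. Of 8 smooth muscle and pericyte markers, cells which also express Tpm1 and Tpm2, Smtn fell (43.3 ± 1.26 CPM in restraint and 64.3 ± 3.34 CPM in control, edgeR adjusted p of 0.0249), and the list summed to 549.1 to 601 CPM in restraint and 579.5 to 660 CPM in control. The call of Smtn was lost without any 1 library other than restraint 1 and control 3, and with limma on log2 TPM or FPKM. The list was split in direction, with 4 markers up, 4 down and a median log2 value of -0.05. Those up included Acta2 (0.09 ± 0.15), Tagln (0.09 ± 0.15) and Cnn1 (0.16 ± 0.34). Those down included, beside Smtn, Myh11 (-0.18 ± 0.19) and Rgs5 (-0.11 ± 0.10). The part of smooth muscle cells and pericytes in the Tpm2 values was not tested. None of 8 fibroblast and tendon markers passed, with a median log2 fold change of -0.61 (Kera -1.34 ± 0.35, Fmod -0.91 ± 0.32), while 2 of the 8, Pdgfra and Dcn, had positive values (0.24 ± 0.17 and 0.06 ± 0.12). None of 5 endothelial (Emcn -0.39 ± 0.13, Pecam1 0.21 ± 0.11), 5 adipocyte (Plin1 -0.78 ± 0.48, Cidec -0.53 ± 0.54) or 4 erythroid markers (Alas2 -0.31 ± 0.29, Hbb-bt -0.11 ± 0.20) passed either.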

How the data were processed

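PolyA RNA of gastrocnemius was measured in 3 restraint and 3 control libraries, with groups taken from the treatment label and replicate numbers from the titles. The submitters' processing notes name the tools bcl2fastq (version 2.20.0), Trimmomatic, HISAT2 (version 2.1.0) and StringTie (version 2.1.3b) and the build GRCm38 or mm10, without roles. Per the file headers, the authors deposited a whole read count for each feature and library, beside FPKM and TPM that they had computed. The counting tool and its use of strand are not given in the sources used here. The 825 unannotated loci were kept as features (4.84% to 7.14% of counts).

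The main test was the two-sided quasi-likelihood test of edgeR 4.0.16 (R 4.3.3), with filterByExpr at a minimum count of 10 and minimum total of 15 and TMM scaling. Benjamini-Hochberg adjustment ran over all 15448 tested features, with a threshold of 0.05 on the adjusted p. Standard errors are the absolute log2 fold change over the root of F, and CPM use TMM-scaled library sizes. Ratios of read counts within a library were compared by exact permutation over libraries. The script was tested on simulated data. Libraries of a group differed by more than sampling noise (chi-square over its degrees of freedom was at least 27.2). Alternatives were other scalings, filters, DESeq2 1.42.0, limma 3.58.1 (voom, and log2 TPM or FPKM with pseudocounts of 1 or 0.1), a replicate block and each library left out. Intervals cover the spread between libraries only.

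The genes and lists were chosen with earlier results of these data known. The text names the 9 genes, from each list up to 4 called genes, or 2 where none is called, in order of p, and the 5 genes most like the slow and the fast troponins. List genes named beyond these, and Myh3 and Myh8, were chosen after their values were seen. Values of 1 list gene are not reported here. Coordinates and promoters are from RefSeq on GRCm38.p6, coding sequences from GENCODE M21.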

Additional observations from a re-analysis of the deposited data

How the results depend on the processing

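None of the 9 genes passed under any of 171 alternative values, of which 159 kept the direction and 12 reversed. The reversed log2 fold changes were, without restraint 2, Tnni2 0.029; without restraint 3, Tnnt3 -0.056; without control 1, Tnnt3 -0.045; without control 3, Tnnt3 -0.07; and, without control 2, Tnnc1 0.129, Tnni2 0.153, Tnnt1 0.105, Tpm1 0.018 and Tpm3 0.141. Upper quartile factors gave Tnnt3 -0.022, and limma on log2(TPM + 1) or log2(TPM + 0.1) gave Tpm3 0.018. The cause was not tested. With each library left out the log2 fold change ran from -0.304 to 0.129 for Tnnc1, -0.195 to 0.153 for Tnni2, -0.382 to 0.105 for Tnnt1, -0.07 to 0.16 for Tnnt3, -0.217 to 0.018 for Tpm1 and -0.154 to 0.141 for Tpm3. It kept its sign for Tnnc2 (-0.297 to -0.034), Tnni1 (0.174 to 0.474) and Tpm2 (-0.388 to -0.246). The log2 difference of the Tnnc1 to Tnnc2 ratio was -0.032 without restraint 2 and -0.015 without control 1 (range -0.032 to 0.163). That of the summed slow to fast ratio was 0.002 without restraint 1, 0.032 without restraint 3 and 0.078 without control 2 (range -0.09 to 0.078). Without control 3, Cidec, Alas2 and Hbb-bt reversed to 0.033, 0.075 and 0.153 (ranges from -1.002, -0.57 and -0.293).

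Features called higher numbered 195, against 501 with DESeq2, 99, 111 and 92 with limma on log2(TPM + 1), log2(FPKM + 1) and log2(TPM + 0.1), and 12 to 254 with each library left out. Features called lower numbered 87, against 55 with library totals, 308 with DESeq2, 23, 42 and 20 with limma in the same order, and 4 to 96 with each library left out. Whether the replicate numbers pair the libraries is not stated. The correlations of deviations of same-numbered libraries were 0.01, -0.247 and -0.274. Deviations within groups of 3 are not independent, so these values cannot settle the pairing. With a replicate block 52 features were called higher and 8 lower, and the 9 genes had adjusted p of 0.523 (Tpm2) to 0.988 (Tnnt3). Of the other calls, the block ended those of Sln, Rcan1, Smtn and Cd68 (adjusted p 0.111, 0.0543, 0.142 and 0.161). Lmod2 passed without control 3 (adjusted p 0.0357), with no filter (0.0443), with a stricter filter (0.0475), and without unannotated loci and mitochondrial genes (0.045). Library totals and limma voom ended the calls of Sln (0.0551 and 0.0541) and Cd68 (0.0505 and 0.196), and limma on log2 TPM or FPKM those of Cd68 (0.0947 to 0.11) and Smtn (0.063 to 0.153).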
